A study of Homo sapiens with 32 samples.

Results

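The change in the response to dasatinib (Das) between 24 h and 72 h was measured in MDA-MB-468 cells. The contrast was the log2 difference between Das and control at 72 h minus the same difference at 24 h. Genes whose response lasted, faded or grew were sorted by rules on this contrast and on the response at each time. Of 48804 genes listed, 33132 had at least 1 count and 17227 had enough counts to be tested. The contrast rests on 16 of the 32 RNA-seq libraries, 4 for each of control at 24 h, Das at 24 h, control at 72 h and Das at 72 h. MDA-MB-468 is an established human triple negative breast cancer (TNBC) line, here kept as a monolayer culture and labelled as 4 biological replicates per condition. Control cells received PBS for 24 h or 72 h, and the Das cells received 15 μM Das for the same times. The remaining 16 libraries were treated with salinomycin alone or with Das. They entered only the choice of genes tested, the scaling and the estimate of the spread between replicates.

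Das is a kinase inhibitor that blocks SRC and ABL family kinases, and several receptor kinases. SRC family kinases pass signals from growth factor receptors and integrins to the RAS, RAF, MEK and ERK cascade. Active ERK switches on immediate early factors such as EGR1 and feedback genes such as the Sprouty and DUSP genes, which damp the same cascade, so the mRNA of these genes is widely used as a readout of ERK output. MDA-MB-468 cells carry an amplified EGFR gene. A response that is already present at 24 h may last, fade or grow with longer exposure, and a fold change at a single time does not show which.

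The totals of the 16 libraries lay between 25692561 and 42769687 counts. EGFR lay between 2830 and 5920 counts scaled to library size (CPM) and EPCAM between 241 and 387 CPM in all 16. Of the hormone receptor genes, ESR1 was expressed, at 155 to 353 counts, and PGR had at most 1 count. ERBB2, the HER2 gene, was also expressed, at 3285 to 7109 counts. The pan-leukocyte gene PTPRC had at most 5 counts. Of the markers of other cell types, CSF1R at 4.97 to 17.6 CPM and COL1A1 at 18.2 to 67.9 CPM were expressed, and CD3E, COL1A2 and DCN were at 2 counts or fewer. The summed level of those markers was 33.2 to 50.8 CPM in control and 63.1 to 75.3 CPM in Das cells at 24 h, and 36.2 to 46.0 and 38.9 to 76.4 CPM at 72 h, and its part in the results was not tested. Over the genes higher or lower with Das at 24 h, Das replicate 3 of 72 h stood closest to the controls. Over the 250 genes higher with Das at 24 h, its median log2 difference from the controls was 0.42, against 0.75 to 1.02 in the other 3 Das libraries of 72 h. Values without it are therefore given beside the changes. The libraries without a number in their labels, 1 per group, also deviated together from their groups, so values from the numbered libraries alone are given beside the pooled counts.

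With all libraries, few genes changed their response between the times. At an adjusted p under 0.01 and a change of more than 1.5 on the log2 scale, 16 genes changed, 5 upwards and 11 downwards, which was 0.0929% of the genes tested. At the adjusted p alone 39 genes changed (0.226%), 9 upwards (0.0522%) and 30 downwards (0.174%), and 2451 genes had an unadjusted p under 0.05. Without Das replicate 3 of 72 h the counts were 64 (0.367%) and 307 (1.76%), the latter made of 154 upward (0.882%) and 153 downward (0.876%) changes. All 39 genes were among those 307, and all 16 among those 64. In the numbered libraries alone 111 genes passed both cutoffs and 607 the adjusted p, again with all 39 among them, and in these without replicate 3 the counts were 380 and 3265. Leaving out replicate 3 from all libraries gained the call for 268 genes. Of these, 78 were also called with replicate 3 kept and a batch term for the unnumbered libraries, 90 in the numbered libraries with replicate 3 kept, and 168 in neither. In bulk RNA, a fall can come from fewer cells of a kind or from less RNA per cell, and the data cannot tell these apart.

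With all libraries, the response itself was far broader than its change. At 24 h, 435 genes passed both cutoffs (2.53%), 250 higher and 185 lower with Das, and at 72 h 912 did (5.29%), 483 higher and 429 lower. Both times shared 300 genes in the same direction, of which 6 changed between the times, and all 6 grew. Past both cutoffs only at 72 h were 612 genes, but the change itself was called for 14 of them, and 135 were past them only at 24 h, with a called change for 4. These shares depended on the libraries. At 72 h alone the change was called for 89 of 880 genes without replicate 3, for 121 of 646 in the numbered libraries, and for 574 of 1175 in the numbered libraries without replicate 3. At 24 h alone it was called for 9 of 121, 36 of 215 and 59 of 206. Of the 39 changed genes, 26 grew, 8 faded and 5 turned from one direction to the other. Of the 26, the fall grew in 20 and the rise in 6. Another 44 genes lasted, which means that they passed both cutoffs at both times and that the 95% interval of the change lay within 1 log2 unit of 0. The rest of the 300 genes met neither the rule for a change nor the rule for lasting. Whether a changed gene moved in the treated or in the untreated cells also differed: between 24 h and 72 h only the Das cells moved at the adjusted p in 23 of the 39, only the control cells in 9, and both in 7.

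**Figure D1:**
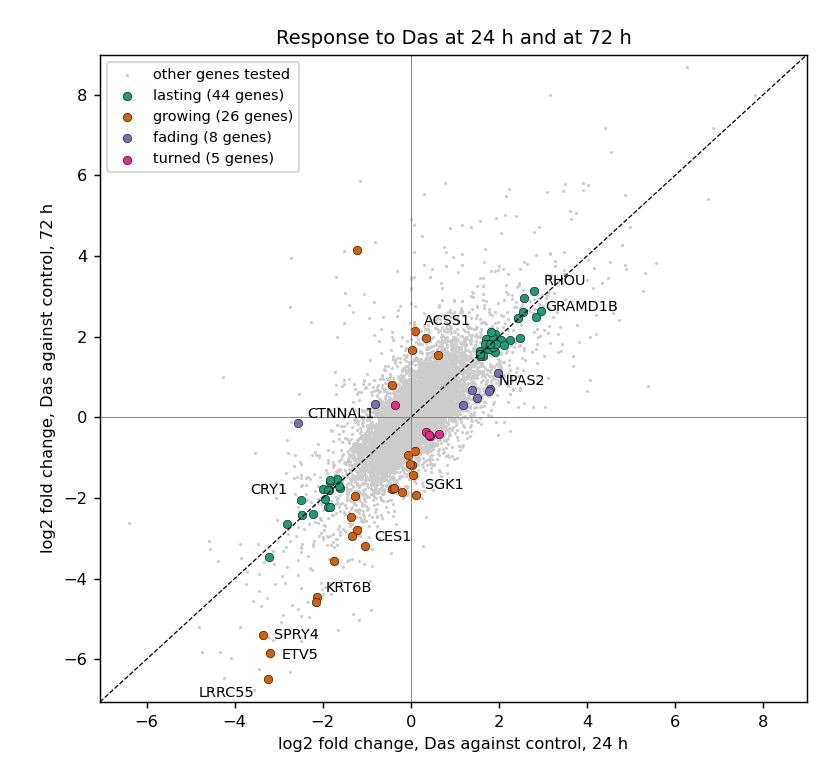
Log2 fold change of Das against control at 24 h (x axis) and at 72 h (y axis) for the 17227 genes tested, with the dashed line marking equal responses. Coloured points are the 44 lasting, 26 growing, 8 fading and 5 turned genes, and the growing falls, such as ETV5 at -3.19 and -5.85, lie below the line.

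Of the genes of ERK output, ETV5 and SPRY4 were lower with Das at 24 h and lower still at 72 h. ETV5 encodes an ETS transcription factor that is switched on by ERK. It was at 14.7, 10.7, 10.5 and 11.2 CPM in control cells at 24 h (unnumbered library, then replicates 1, 2 and 3) and at 1.02, 1.30, 1.39 and 1.47 CPM in Das cells. At 72 h it was at 20.2, 22.4, 21.1 and 20.8 CPM in control and 0.367, 0.404, 0.608 and 0.0933 CPM in Das cells. Every Das library of 72 h was below every Das library of 24 h, and every control of 72 h above every control of 24 h. The fall was 9.14-fold at 24 h and 57.6-fold at 72 h, a change of -2.65 ± 0.30 (log2, SE; adjusted p = 1.89e-05 in edgeR's quasi-likelihood test) and of -2.35 without replicate 3 (adjusted p = 1.1e-06). The 72 h level rests on 3 to 17 counts per library.

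SPRY4, a Sprouty protein that inhibits signalling from receptor tyrosine kinases to ERK, fell in the same way. Control cells held 24.7 to 30.0 CPM at 24 h and 32.4 to 37.0 CPM at 72 h, and Das cells held 2.1 to 2.96 CPM at 24 h and 1.32, 0.808, 0.608 and 0.435 CPM at 72 h. No Das library of 72 h reached the lowest of 24 h. Its log2 fold change went from -3.35 ± 0.22 to -5.40 ± 0.25 and its change was -2.05 ± 0.31 (adjusted p = 0.00061), -1.86 without replicate 3 (adjusted p = 0.000744). In both ETV5 and SPRY4, replicate 3 had the lowest value of the Das libraries at 72 h. Over the genes higher or lower with Das at 24 h, it had stood closest to the controls.

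DUSP6, the phosphatase that inactivates ERK in the cytoplasm, was at 11.1 to 12.8 CPM in control and 1.2 to 2.2 CPM in Das cells at 24 h, and at 14.8 to 21.7 CPM and 0.220, 0.902, 0.858 and 1.12 CPM at 72 h. The groups did not overlap at either time. Its change of -1.96 ± 0.45 missed the threshold (adjusted p = 0.0246) and passed it without replicate 3 (-2.21, adjusted p = 0.00598) and with all libraries and the batch term (-1.95, adjusted p = 0.00021), and 28.6% of its exonic bases are shared with another annotated gene. PHLDA2, a small PH domain protein, changed by -0.93 ± 0.20 (adjusted p = 0.0144) by -0.98 without replicate 3 (adjusted p = 0.00452) and by -0.93 with the batch term (adjusted p = 0.00314). Of the 20 ERK feedback genes tested, 11 were lower and 1 higher at 24 h (all genes, 6.39% and 6.01%), and 13 were lower and 2 higher at 72 h (12.1% and 12.6%). The change was called downwards for 2 of them with all libraries and for 4 without replicate 3, and for none upwards. The median log2 fold change of the list was -0.837 at 24 h and -1.24 at 72 h, beside 0.00655 and 0.0293 over all genes, and the median change was -0.482 beside 0.0168.

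**Figure D2:**
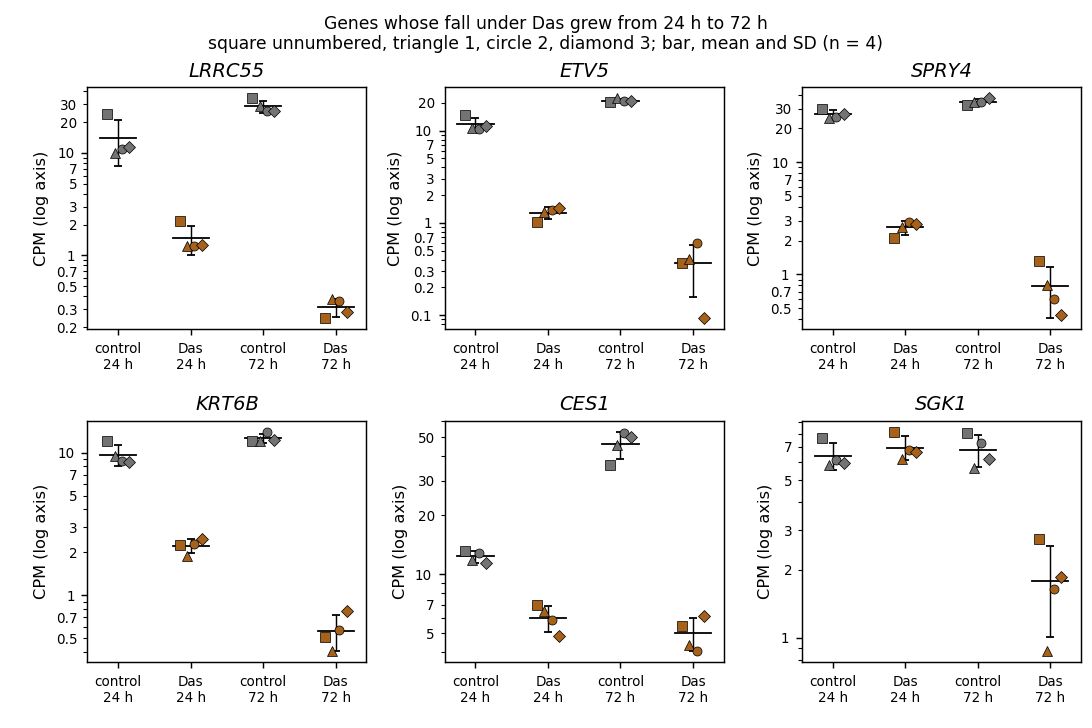
CPM on a log axis for 6 genes whose fall with Das grew, with a symbol per library and the mean and SD of each group of 4. In ETV5 and SPRY4 the Das cells fell further between 24 h and 72 h, in CES1 the controls rose, and in SGK1 the groups differed only at 72 h.

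EGR1, the zinc finger factor induced within minutes of ERK activation, was lower with Das at both times. In control cells it was at 259, 163, 191 and 190 CPM at 24 h and at 86.0, 230, 281 and 302 CPM at 72 h. In Das cells it was at 23.5, 5.02, 5.73 and 8 CPM at 24 h and at 0.857, 0.902, 0.965 and 7.46 CPM at 72 h. Replicate 3 of 72 h stood within the range of the 24 h libraries, and the other 3 were below it. The change of -2.23 ± 0.84 was not called (adjusted p = 0.189), and without replicate 3 it was -3.72 (adjusted p = 0.00697). The promoter of EGR1 is shown because it carries the serum response elements through which ERK-activated factors are known to switch this gene on. It lies at chr5:138465229-138465528 on the plus strand of GRCh38.p14 (RefSeq), from 250 bases before to 50 bases after the transcription start, and the capitals mark its 2 CArG boxes, which bind serum response factor (CC, a run of A and T, and GG, the same on both strands).
EGR1 promoter: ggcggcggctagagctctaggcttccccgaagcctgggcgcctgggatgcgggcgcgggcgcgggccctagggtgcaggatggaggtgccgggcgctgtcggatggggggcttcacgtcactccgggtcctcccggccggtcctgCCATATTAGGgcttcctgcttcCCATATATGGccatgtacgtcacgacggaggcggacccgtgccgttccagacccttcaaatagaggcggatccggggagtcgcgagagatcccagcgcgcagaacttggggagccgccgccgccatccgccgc
A CArG box was found in 1.293% of the 35116 promoters of the same length, and among the 17 tested immediate early genes with a promoter in the table EGR1 alone held such letters.

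MYC, the growth-promoting transcription factor downstream of ERK, did not differ at 24 h and was lower at 72 h. It was at 125 to 149 CPM in control and 117 to 141 CPM in Das cells at 24 h, which overlap, and at 114, 152, 158 and 172 CPM in control against 68.3, 50.0, 52.2 and 97.7 CPM in Das cells at 72 h, which do not. The log2 fold change went from -0.03 ± 0.15 to -1.15 ± 0.15, a change of -1.12 ± 0.22 (adjusted p = 0.00787; -1.37 without replicate 3, adjusted p = 0.000112). MYC was the sole called gene of the 23 immediate early factors tested with all libraries, and EGR1 joined it without replicate 3. In this list 5 genes were lower and 3 higher at 24 h (all genes, 6.39% and 6.01%), and 10 lower and 4 higher at 72 h (12.1% and 12.6%), so it did not move as a block. CCND1, the cyclin that carries growth signals into the cell cycle, fell by 1.29 ± 0.17 at 24 h and by 2.13 ± 0.17 at 72 h on the log2 scale. Its change of -0.84 ± 0.23 was not called with all libraries (adjusted p = 0.0731) and was called without replicate 3 (-1.12, adjusted p = 0.00121), where it was the only one of 19 genes of the G1/S list.

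KRT6B and PADI3, which serve stratified epithelia, and the acute phase gene SAA2 also fell further at 72 h than at 24 h. KRT6B, a keratin of stressed and stratified epithelia, was at 8.56 to 12 CPM in control and 1.88 to 2.49 CPM in Das cells at 24 h, and at 12 to 14 CPM and 0.514, 0.404, 0.572 and 0.777 CPM at 72 h. The 4 Das libraries of 72 h lay below all of 24 h, and the fall grew from 4.37-fold to 22.1-fold (change -2.34 ± 0.44, adjusted p = 0.00704; -2.53 without replicate 3, adjusted p = 0.00202). KRT6B has near-identical paralogues, and how reads shared between them were counted is not given in the sources used here. PADI3, which converts arginine to citrulline in proteins of the hair follicle and epidermis, went from -1.73 ± 0.24 to -3.57 ± 0.26, a change of -1.84, or -1.87 without replicate 3.

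KRT14 and KRT5, the paired keratins of the basal cell layer, had a change of the same sign that was less certain. KRT14 changed by -1.71 ± 0.37 (adjusted p = 0.0167) and KRT5 by -1.24 ± 0.34 (adjusted p = 0.0626), and both were called without replicate 3, at -1.77 and -1.51. With replicate 3 kept, KRT14 was also called with the batch term (-1.64, adjusted p = 0.00201), and both were called in the numbered libraries (-2.16 and -1.33). KRT5 was abundant, at 818 to 915 CPM in control and 308 to 449 CPM in Das cells at 24 h, and at 502 to 573 CPM and 97.4, 82.9, 84.7 and 159 CPM at 72 h. KRT86, a hair keratin, was the exception, since its rise at 24 h (1.18 ± 0.14) was not called at 72 h (0.27 ± 0.14) and faded without replicate 3 (-0.92, adjusted p = 0.00772) and with the batch term (-0.90, adjusted p = 0.00395). Over the 17 keratins tested, 7 were lower and 2 higher at 24 h (all genes, 6.39% and 6.01%) and 10 lower and 1 higher at 72 h (12.1% and 12.6%). SAA2, an acute phase protein, fell 4.45-fold and 23.8-fold, from 5.66 to 14.5 CPM in control and 1.33 to 3.05 CPM in Das cells at 24 h to 9.68 to 15.5 CPM and 0.612, 0.529, 0.572 and 0.218 CPM at 72 h. Its change was -2.42 ± 0.46 (adjusted p = 0.00684; -2.18 without replicate 3, adjusted p = 0.00507), and reads of its close paralogue SAA1 may be split between them. The Das level of SAA2 at 72 h rests on 7 to 25 counts per library.

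LRRC55, a leucine-rich auxiliary subunit of potassium channels, had the largest fall of the 16 genes. It was at 24.2, 9.93, 10.9 and 11.5 CPM in control and 2.15, 1.24, 1.23 and 1.25 CPM in Das cells at 24 h, and at 34.1, 28.5, 25.7 and 25.5 CPM in control and 0.245, 0.373, 0.357 and 0.280 CPM in Das cells at 72 h. The unnumbered library was the highest of its group in 3 of the 4 groups, and no group overlapped another. The fall was 9.53-fold at 24 h and 90.6-fold at 72 h, and the change was -3.25 ± 0.39 (adjusted p = 2.11e-05; -3.21 without replicate 3, adjusted p = 5.84e-05). The Das level at 72 h rests on 9 to 12 counts per library.

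SGK1 and PALD1 were not lower at 24 h and were lower at 72 h. SGK1, a serum- and glucocorticoid-induced kinase that acts beside AKT, was at 5.81 to 7.71 CPM in control and 6.17 to 8.17 CPM in Das cells at 24 h. At 72 h control cells were at 5.66 to 8.11 CPM and Das cells at 2.74, 0.871, 1.64 and 1.87 CPM. The groups overlapped at 24 h and not at 72 h, and the change was -2.05 ± 0.32 (adjusted p = 0.00105; -2.07 without replicate 3). PALD1, a paladin phosphatase-like protein, went from a log2 fold change of -0.20 ± 0.20 to -1.85 ± 0.21, with Das cells at 3.18, 2.05, 2.07 and 4.38 CPM at 72 h against 8.94 to 11.9 CPM in control, and its change was -1.65 with and -1.91 without replicate 3. IL27RA, the receptor chain for interleukin 27, went from -0.44 ± 0.16, which was not called, to -1.78 ± 0.17, a change of -1.35 with and -1.32 without replicate 3.

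IFITM3, an interferon-induced membrane protein that blocks virus entry, did not differ in level between the groups of 24 h beyond their spread and was lower with Das at 72 h. It was at 157 to 168 CPM in control and 155 to 187 CPM in Das cells at 24 h, and at 197, 256, 259 and 274 CPM in control against 136, 95.5, 96.3 and 108 CPM in Das cells at 72 h. Its change of -1.21 ± 0.17 (adjusted p = 0.000349; -1.21 without replicate 3, adjusted p = 0.000317) came from both arms, since the control level rose by 0.62 and the Das level fell by 0.59 on the log2 scale. IFITM3 has close paralogues, so its reads may be split among them, and it was not a member of the list of 27 interferon-stimulated and MHC class I genes. In that list none was higher and 3 were lower at 24 h (11.1% of the list, beside 6.39% of all genes), 13 were lower at 72 h (48.1% beside 12.1%), and no change was called with all libraries. BST2 (tetherin) and MX1, both antiviral proteins, were called without replicate 3, at -1.36 and -0.84, and BST2 also with all libraries and the batch term (-1.43, adjusted p = 0.00131).

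More members of the chemokine and cytokine list were lower at 72 h than at 24 h. Of 12 genes tested, 4 were lower and 1 higher at 24 h (all genes, 6.39% and 6.01%), and 10 were lower and none higher at 72 h (12.1% and 12.6%). The median log2 fold change went from -0.706 to -2.35 and the median change was -1.35, yet no single member was called with all libraries. CXCL10, a chemokine that attracts T cells, had 9 to 23 counts in control and 4 to 8 counts in Das cells at 24 h. At 72 h it had 39, 30, 40 and 31 counts in control and 0, 2, 2 and 0 counts in Das cells, at least 10.82-fold lower against a floor of 3 counts per library (p = 0.0286 in a two-sided exact permutation test, which cannot go lower with 4 libraries a group). Its change was called without replicate 3 (adjusted p = 0.00831) and not with it (adjusted p = 0.0115), but it was called with all libraries once the batch term was added (adjusted p = 0.00303). The median of the list with CXCL10 at its bound was the same to 2 decimals.

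C3, the central complement component, PI3 (elafin, a protease inhibitor) and OLFM4, a secreted glycoprotein, were called without replicate 3 and not with all libraries. C3 was at 227, 98.1, 105 and 108 CPM in control and 109, 49.2, 45.8 and 52.9 CPM in Das cells at 24 h, and at 292 to 341 CPM and 44.2, 16.6, 18.2 and 22.4 CPM at 72 h. The unnumbered library was the highest in both groups of 24 h, and the groups did not overlap at 72 h. The changes without replicate 3 were -2.52 for C3, -3.97 for PI3 and -3.17 for OLFM4. With replicate 3 kept and a batch term for the unnumbered libraries, all 3 were called as well, at -2.71 (adjusted p = 5.61e-10), -3.85 (adjusted p = 3.05e-06) and -2.35 (adjusted p = 0.000238), and so they were in the numbered libraries. Of the 27 integrins, laminins and matrix genes tested, 7 were lower at 24 h (all genes, 6.39%), 14 at 72 h (12.1%) and none was higher. TNC (tenascin C, a matrix glycoprotein of wounds) and MMP7 (matrilysin, a matrix protease) were called without replicate 3, at -2.87 and -2.30, and also with all libraries and the batch term, at -2.81 and -2.18. TNC fell to 0.107 to 0.187 CPM in Das cells at 72 h from 1.18 to 2.02 CPM at 24 h. Its 72 h level rests on 3 to 6 counts per library.

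In some genes it was the control cells that moved. CES1, a carboxylesterase that hydrolyses esters and drugs, was at 11.4 to 13.2 CPM in control and 4.83 to 6.94 CPM in Das cells at 24 h, and at 35.9, 45.8, 52.2 and 49.9 CPM in control and 5.44, 4.35, 4.07 and 6.12 CPM in Das cells at 72 h. The control level rose by 1.90 on the log2 scale (adjusted p = 1.92e-07), while the Das level differed by -0.27 (adjusted p = 0.329), so the contrast of -2.17 (-2.28 without replicate 3) came mostly from the control arm. DEPP1, a FOXO target linked to autophagy, gave the same pattern, with a control rise of 1.32 and a Das difference of -0.26, and a change of -1.58 ± 0.19 (adjusted p = 2.26e-05; -1.53 without replicate 3). SLC34A2, a sodium-dependent phosphate transporter, rose by 1.52 in control cells and differed by 0.03 in Das cells, and its change was -1.48 with and -1.57 without replicate 3. ALDH3A1, an aldehyde dehydrogenase and a target of the aryl hydrocarbon receptor, fell in control cells from 16 to 22.1 CPM at 24 h to 2.65 to 4.77 CPM at 72 h, and in Das cells from 21.7 to 28.6 CPM to 16.8, 13.3, 14 and 7.99 CPM. Its response grew from 0.34 ± 0.21 to 1.97 ± 0.22 (change 1.63 ± 0.30, adjusted p = 0.0063; 1.80 without replicate 3). In these 4 genes the control arm moved more than the Das arm.

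Few rises grew with all libraries. ACSS1, which makes acetyl-CoA from acetate in mitochondria, went from a log2 fold change of 0.10 ± 0.28 to 2.15 ± 0.28. Its Das libraries of 72 h were at 12.9, 19.2, 16.3 and 4.32 CPM against 2.21 to 3.34 CPM in control, while both groups lay at 2.49 to 4.30 CPM at 24 h. Replicate 3 was the lowest of the 4 and still above every control, and the change was 2.05 with and 2.34 without it. RHOB, a small GTPase of endosomes and stress responses, rose at both times, from 33.8 to 37.2 CPM in control and 48.7 to 62.1 CPM in Das cells at 24 h to 25.2 to 31.7 CPM and 66.4, 89.8, 88.4 and 89.3 CPM at 72 h. Its change of 0.92 ± 0.14 (adjusted p = 0.000775; 0.88 without replicate 3) was below the size cutoff and was called in every fit that left out 1 library. The long non-coding RNA gene ENSG00000251143 changed by 1.63 ± 0.29 (1.57 without replicate 3), with 1.97 to 2.74 CPM in Das cells at 72 h against 0.667 to 0.904 CPM in control, and 65.2% of its exonic bases are shared with another gene, so its counts are uncertain. CENPJ, a centriole assembly protein, changed by 1.23 ± 0.24 (1.36 without replicate 3).

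**Figure D3:**
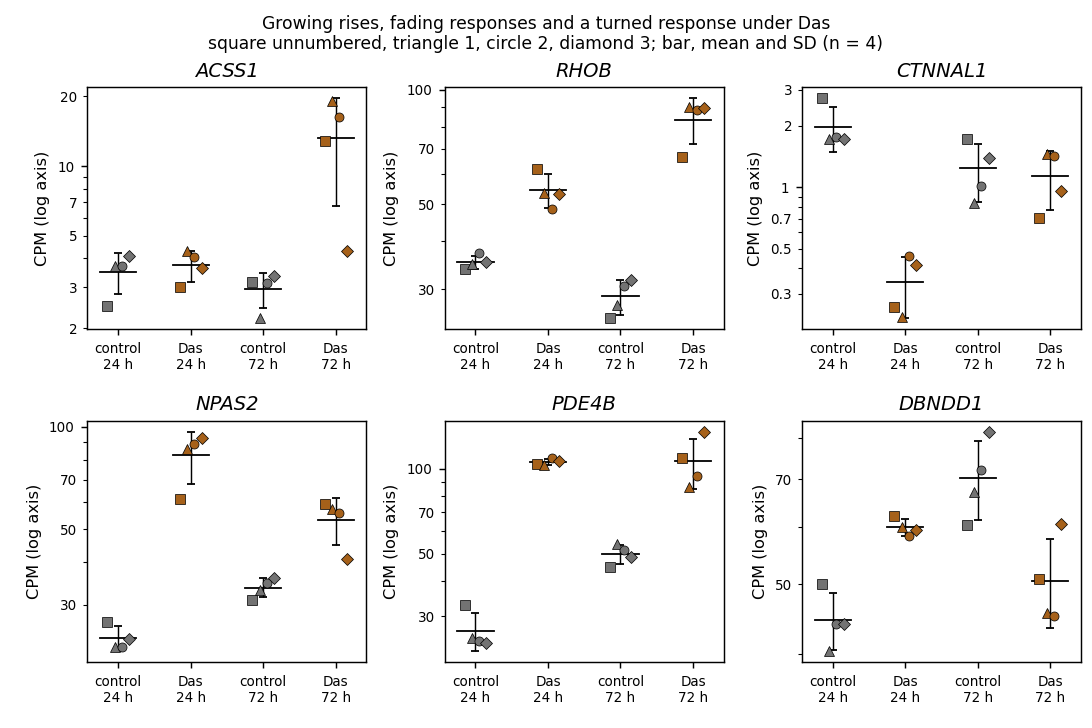
CPM on a log axis for ACSS1 and RHOB, whose rise grew, CTNNAL1, NPAS2 and PDE4B, whose response faded, and DBNDD1, which turned, with a symbol per library and the mean and SD of each group of 4. Das replicate 3 of 72 h (diamond) is the lowest Das library of 72 h for ACSS1, at 4.32 CPM, and lies among the others for RHOB, at 89.3 CPM.

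Without replicate 3, 274 of the 307 called genes grew, 144 of them rises and 130 falls. Over the genes higher or lower with Das at 24 h, replicate 3 had the weakest median response of the Das libraries of 72 h. Leaving it out tends to raise the 72 h response, so these counts do not test whether responses grew. Among the growing genes was GPNMB, a lysosomal and melanosomal glycoprotein and the named gene of the lysosome list. It was at 26.0 to 29.8 CPM in control and 105 to 114 CPM in Das cells at 24 h, and at 21.0 to 28.2 CPM in control and 276, 516, 485 and 93.9 CPM in Das cells at 72 h. Replicate 3 was below the 24 h Das libraries and the other 3 were far above them. The change was 1.75 ± 0.39 (adjusted p = 0.0204) with and 2.06 ± 0.24 (adjusted p = 1.87e-05) without it. With it and the batch term the change was 1.76 (adjusted p = 0.0042).

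The endoplasmic reticulum (ER) chaperone list behaved likewise. HERPUD1, a membrane protein of ER-associated degradation, was at 114 to 120 CPM in control and 273 to 334 CPM in Das cells at 24 h, and at 135 to 169 CPM in control and 569, 910, 846 and 223 CPM in Das cells at 72 h. Replicate 3 lay below the Das range of 24 h. HERPUD1, DNAJC3 (a co-chaperone that restrains the kinase PERK) and SEL1L (a scaffold of the ER ubiquitin ligase HRD1) were called without replicate 3, at 1.01, 1.05 and 0.85, and not with it (adjusted p = 0.306, 0.058 and 0.11). Of 14 genes tested, 2 were higher at 24 h (14.3%, beside 6.01% of all genes) and 7 at 72 h (50.0% beside 12.6%), and none was lower. The median log2 difference of the list from the controls was 0.12 to 0.22 in the Das libraries of 24 h, and 0.66, 0.95 and 0.85 in the unnumbered library and replicates 1 and 2 of 72 h, against -0.01 in replicate 3.

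The median change of the mitosis list depended on that library. Its 27 genes, which build the spindle and drive chromosome segregation, included 22 lower at 24 h (all genes, 6.39%) and 11 lower at 72 h (12.1%), with none higher. The median log2 fold change was -1.20 at 24 h and -0.752 at 72 h and the median change 0.451, but it was -0.00107 without replicate 3 and -0.128 in the numbered libraries without it. The median difference from the controls was -0.84, -1.52 and -1.29 in the unnumbered library and replicates 1 and 2 of Das at 72 h and 0.04 in replicate 3, so the median of its mitotic genes stood at the control level. PLK1, the kinase of mitotic entry, was at 54.7, 31.6, 33.1 and 101 CPM in Das and 119 to 154 CPM in control cells at 72 h, and its change was 0.08 ± 0.36 with and -0.40 ± 0.30 without replicate 3, neither of them called (adjusted p = 0.963 and 0.512). CCNF, a cyclin-like ubiquitin ligase subunit, gave 0.21 ± 0.32 and -0.22 ± 0.25. No gene of the list was called for the change with all libraries or with replicate 3 alone left out. In the numbered libraries without replicate 3, PLK1 was called (-0.69, adjusted p = 0.000636) and CCNF was not (-0.41, adjusted p = 0.0113).

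More DNA replication genes were lower at 72 h than at 24 h. Of 34 tested, 12 were lower at 24 h (35.3%, beside 6.39% of all genes) and 26 at 72 h (76.5% beside 12.1%), with none higher, and the median change was -0.144, or -0.348 without replicate 3. It was 0.016 in the numbered libraries and -0.447 there without replicate 3. MCM5, MCM6 and MCM3, subunits of the helicase that opens replication origins, were called without replicate 3, at -1.11, -0.89 and -0.68. MCM5 was at 163 to 182 CPM in control and 125 to 135 CPM in Das cells at 24 h, and at 120 to 137 CPM in control and 56.3, 36.5, 36.7 and 89.4 CPM in Das cells at 72 h. No change in this list was called with replicate 3 included.

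**Figure D4:**
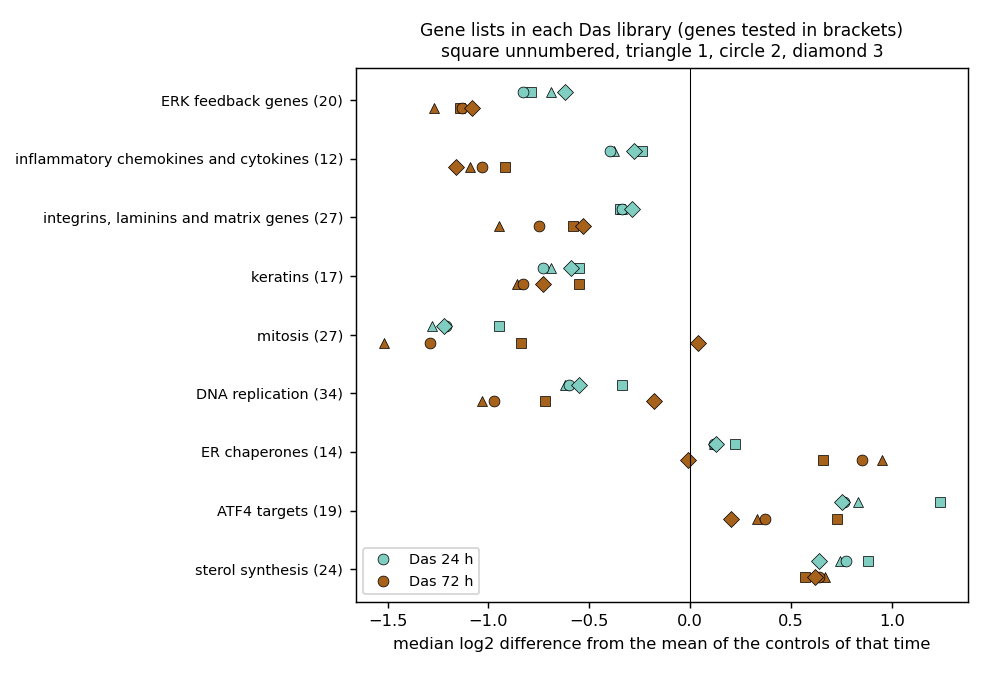
Median log2 difference of each Das library from the mean of the controls of its time (x axis), for 9 gene lists (y axis, genes tested in brackets), with 24 h in green and 72 h in brown. Das replicate 3 of 72 h (diamond) lies at 0.04 for mitosis and -0.01 for ER chaperones, apart from the other 3 libraries of 72 h, and at -1.08 for ERK feedback genes, next to them.

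Among the fading responses, CTNNAL1 was the strongest. This alpha-catulin gene, whose protein is related to the catenins of cell contacts, was at 2.73, 1.72, 1.76 and 1.73 CPM in control and 0.260, 0.231, 0.462 and 0.415 CPM in Das cells at 24 h. At 72 h control was at 1.72, 0.837, 1.01 and 1.39 CPM and Das at 0.710, 1.46, 1.43 and 0.964 CPM. The groups were apart at 24 h and overlapped at 72 h. The Das level at 24 h rests on 8 to 15 counts per library. The fall of 5.87-fold at 24 h was a log2 fold change of -0.14 ± 0.29 at 72 h, and the change was 2.42 ± 0.43 (adjusted p = 0.00438; 2.49 without replicate 3, adjusted p = 0.0018). BORA, an activator of the mitotic kinase Aurora A, was the other fading fall, from -0.81 to 0.33, and 37.0% of its exonic bases are shared with another gene. Without replicate 3 its log2 fold change at 72 h was called as a rise (0.45, adjusted p = 0.00317), so that it turned instead of fading.

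The other 6 fading genes were rises, and none of them had the size to pass 1.5 for the change. NPAS2, a clock transcription factor, rose from 22.5 to 26.8 CPM in control to 61.4, 86.2, 89.0 and 92.9 CPM in Das cells at 24 h, and from 31.0 to 35.9 CPM to 59.2, 57.3, 55.8 and 40.8 CPM at 72 h. Das stayed above control at both times, but its log2 fold change went from 1.78 ± 0.16 to 0.66 ± 0.16, a change of -1.12 with and -1.02 without replicate 3. PDE4B, a phosphodiesterase that breaks down cyclic AMP, differed by 0.01 on the log2 scale between the times in Das cells, at 103 to 109 CPM at 24 h and 85.8 to 135 CPM at 72 h, while control cells went from 24.1 to 32.8 CPM to 44.7 to 54.0 CPM. Its fold change went from 3.96 to 2.13, and the log2 change was -0.89 with and -1.03 without replicate 3. EVA1C, a heparin-binding membrane protein, MOB3B, a MOB kinase activator family member, and CSGALNACT1, which starts chondroitin sulphate chains, likewise had a control level that rose, by 0.82, 0.72 and 0.69, and a Das level whose difference was not called. TNS2-AS1, an antisense RNA gene, went from 1.19 to 0.30, and since the strand setting of the counting is not given in the sources used here, reads of its partner gene cannot be told apart from its own.

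The remaining 5 genes turned. SHISA4, a transmembrane adaptor family member, DBNDD1, a dysbindin-domain protein, DCBLD1, a membrane receptor-like protein, and ACSS2, the cytosolic acetyl-CoA synthetase, were higher with Das at 24 h and lower at 72 h. DBNDD1 was at 40.3 to 50.1 CPM in control and 58.3 to 62.2 CPM in Das cells at 24 h, and at 60.5 to 81.5 CPM in control and 50.9, 45.6, 45.2 and 60.6 CPM in Das cells at 72 h. The log2 fold changes were 0.43 ± 0.10 and -0.47 ± 0.10, and the change was -0.90 with and -1.01 without replicate 3. ACSS2 was at 136 to 160 CPM in control and 180 to 188 CPM in Das cells at 24 h, and at 132 to 169 CPM and 117 to 118 CPM at 72 h, so at 72 h it was lower while its mitochondrial counterpart ACSS1 was higher. PAFAH2, which hydrolyses platelet-activating factor and oxidised phospholipids, turned from -0.37 to 0.29. Each of these log2 fold changes was at most 0.63 in size.

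Of the 44 lasting genes, 28 were higher and 16 lower with Das, and 31 of them were also lasting without replicate 3. RHOU, an atypical small GTPase, was at 2.82 to 4.17 CPM in control and 23.6 to 24.9 CPM in Das cells at 24 h, and at 5.58 to 6.60 CPM and 41.0, 61.9, 69.1 and 41.9 CPM at 72 h. Both arms rose over time, and with all libraries the response held, at 2.80 ± 0.20 and 3.14 ± 0.19. The 95% interval of the change was from -0.20 to 0.87. PDE4D, like PDE4B a cyclic AMP phosphodiesterase, kept its rise, at 2.58 ± 0.18 and 2.95 ± 0.18. GRAMD1B, a sterol transporter of ER contact sites, was higher by 2.84 and 2.49, DIRAS2, a small GTPase, by 2.96 and 2.64, and GSTM2, a glutathione transferase with close paralogues, by 2.54 and 2.60. In the numbered libraries without replicate 3, a change was called for RHOU (0.62, adjusted p = 0.00723) and DIRAS2 (-0.72, adjusted p = 0.00144). It was not called there for PDE4D, GRAMD1B and GSTM2.

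Among the lasting falls, CRY1, a repressor of the circadian clock, was at 18.8 to 23.1 CPM in control and 3.21 to 3.97 CPM in Das cells at 24 h, and at 19.6 to 23.6 CPM and 5.16 to 5.49 CPM at 72 h. All 4 Das libraries, replicate 3 included, lay close together at each time. The log2 fold changes were -2.49 ± 0.14 and -2.04 ± 0.14, with an interval of the change from 0.07 to 0.84. This interval meets the rule for lasting but leaves out 0. PER3, a clock component, and TEF, a clock-controlled bZIP factor, lasted with all libraries, at -2.81 and -2.65 and at -1.94 and -2.03. Without replicate 3, which held 26.5 CPM of PER3 against 6 to 10.8 CPM in the other Das libraries of 72 h, neither met the rule for lasting, and FOXQ1 and DIRAS2 did not either. FOXQ1, a forkhead factor of epithelial plasticity, and KRT23, a type I keratin, were lower by 3.21 and 3.46 and by 2.22 and 2.40. In the numbered libraries without replicate 3, a change was called for PER3 (-0.90, adjusted p = 7.39e-05) and TEF (-0.76, adjusted p = 0.000176). It was not called there for CRY1, FOXQ1 and KRT23.

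The lists of stress and lipid genes had no called change with all libraries or with replicate 3 alone left out. The sterol synthesis list had 17 of 24 genes higher at 24 h (all genes, 6.01%) and 14 at 72 h (12.6%), with a median of 0.775 and 0.648 and none lower. IDI1 and SQLE, enzymes of the isoprenoid and sterol pathway, were higher by 0.98 and 1.20 and by 0.99 and 1.30. The ATF4 target list, which holds amino acid synthesis and transport genes, had 13 of 19 genes higher at 24 h and 7 higher and 1 lower at 72 h. Its median went from 0.94 to 0.357, and the median change of -0.492 was -0.438 without replicate 3. CTH, which makes cysteine, lasted at 1.91 and 1.61, and DDIT3 (CHOP) stood at 1.98 and 2.37 with an SE of its change of 0.59. The Das libraries held 67.5, 25.5, 24.4 and 23.9 CPM of DDIT3 at 24 h and 87.3, 77.8, 70.1 and 17.3 CPM at 72 h. In the numbered libraries its change was not called with replicate 3 (0.63, adjusted p = 0.375). It was called there without replicate 3 (1.02, adjusted p = 0.000168).

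The known kinase targets of Das had no called change with all libraries. Over all genes, 6.39% were lower and 6.01% higher at 24 h and 12.1% and 12.6% at 72 h, and the counts of lower genes in the hypoxia and lysosome lists lie near these shares. Of 14 tested, 2 were higher and 4 lower at 24 h and 2 higher and 5 lower at 72 h, and SRC itself was called without replicate 3 (-0.77, adjusted p = 0.00769). The EGFR family list of 13 genes had 2 higher and 2 lower at 24 h and 2 higher and 3 lower at 72 h, and ERRFI1, the feedback inhibitor of EGFR, was lower by 0.95 and 1.56. The 23 other receptor tyrosine kinases had 4 lower and 1 higher at 24 h and 9 lower and 1 higher at 72 h. The 23 YAP and TEAD targets had 6 lower at each time and none higher. ANKRD1 was the sole one called without replicate 3, where its fall at 24 h (-1.53) had faded (change 1.76, adjusted p = 0.00872). Its Das libraries of 72 h were at 1.81, 5.29, 6.22 and 1.93 CPM against 3.2 to 4.85 CPM in control. The unnumbered library, kept in that fit, was thus below every control, as replicate 3 was. Among 14 BCL2 family genes 1 was higher and 2 lower at 24 h and 3 lower at 72 h, with MCL1 at -0.80 and -0.83. The hypoxia and glycolysis list had 1 of 21 lower at 24 h and 2 at 72 h, with LDHA at -0.86 and -1.38. The NRF2 list of 16 had 2 higher and 1 lower at 24 h and 4 in each direction at 72 h. Of 21 lysosome genes 2 were higher and 2 lower at 24 h and 5 higher and 2 lower at 72 h, and of 7 aryl hydrocarbon receptor targets 3 were higher at 24 h and 5 at 72 h.

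The 14 genes past both cutoffs that are described here kept their sign in every alternative fit that was run. Of these, LRRC55, ETV5, SPRY4, CES1, SGK1 and DEPP1 were called in each of the 16 fits that left out 1 library. The other 8 rested on the full set of libraries to differing degrees: PALD1 was called in 12, ENSG00000251143 in 11, CTNNAL1 in 10, SAA2 in 6, PADI3 in 5, KRT6B and ALDH3A1 in 4, and ACSS1 in 3 of the 16 fits. None of the 14 genes was lost when Das replicate 3 of 72 h, the unnumbered Das library of 72 h or the unnumbered control library of 24 h was left out, and between 3 and 7 were lost when any of the other 13 libraries was.

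**Figure D5:**
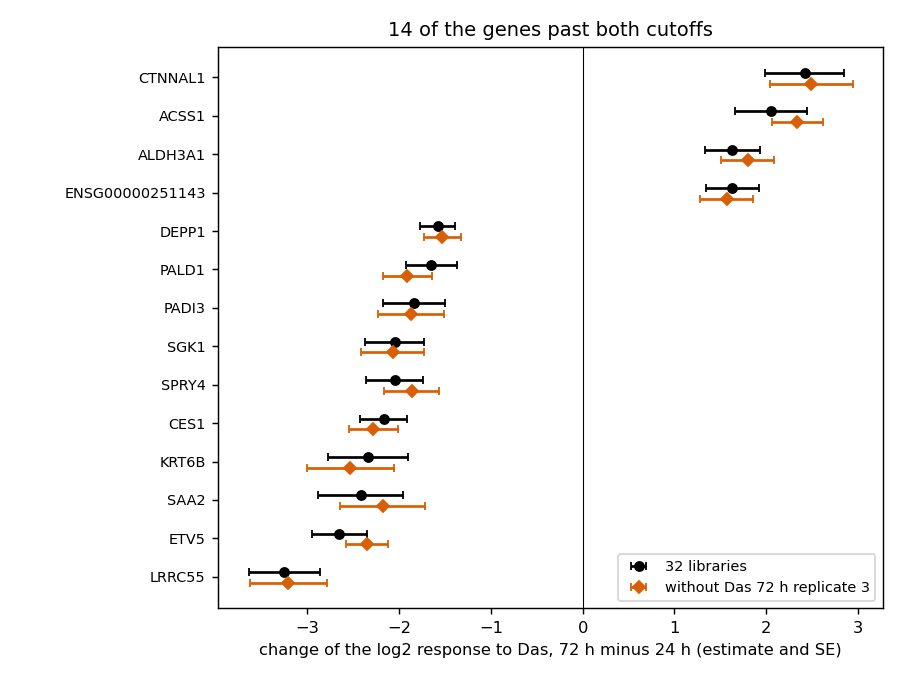
Change of the log2 response to Das (72 h minus 24 h, estimate and SE) for 14 of the genes past both cutoffs, from all 32 libraries (black) and without Das replicate 3 of 72 h (orange). The estimates of each gene from both fits lie on the same side of 0, from -3.25 for LRRC55 to 2.42 for CTNNAL1 with all libraries.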

How the data were processed

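Total RNA of 32 MDA-MB-468 cultures was sequenced after an Illumina TruSeq RNA preparation. The authors deposited raw counts per gene. The submitters' processing notes name bcl2fastq 2.19, STAR 2.5.2, Cufflinks 2.1.1, DESeq2 and the build GRCh37, and the counter, annotation and strand setting are not given in the sources used here. Counting without strand or with reads placed once would shift antisense genes and paralogues. Gene symbols and shared exonic bases came from GENCODE on GRCh37, with a symbol for 46537 of 48804 genes.

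Genes were kept with edgeR's filterByExpr (minimum count 10 over the 8 groups), scaled by TMM and fitted with 1 mean per group by edgeR 4.0.16 quasi-likelihood (R 4.3.3) over all 32 libraries, with Benjamini-Hochberg adjustment over 17227 genes. Genes were called at an adjusted p under 0.01, and past both cutoffs also above 1.5 on the log2 scale, the cutoffs of the study. SE is the size of the estimate over the square root of F. CPM are TMM-scaled, and median differences per library used a pseudocount of 1 CPM. A gene with 3 counts or fewer in every library of a group got no fitted fold. The fit was tested on simulated data, drawn independently for each library. They held no shared deviation of the unnumbered libraries and no deviating replicate 3. The simulation therefore cannot show how the calls depend on these libraries.

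The members and lists were chosen with earlier results of these data known. The rule for naming took the genes past both cutoffs. It took the 8 largest changes each way without Das replicate 3 of 72 h with at least 1 CPM in a group. It also took the 6 strongest lasting genes each way, and up to 4 called members of each of 21 lists, or up to 2 called at both times. Some genes that the rule took, such as CARMIL3, CUZD1, SERHL2 and PALM3, are not described. Of the genes past both cutoffs, 2 are not reported here. Genes called at the adjusted p alone were named after their values were seen. The libraries of number 1, 2 and 3 did not deviate together across groups (same number, median correlation 0.00 over 18 pairs, 3 of them over 0.1), so the number was not used as a pairing. Alternatives were RLE scaling, no filter, DESeq2 1.42.0, a block, a batch term for the unnumbered libraries, the numbered libraries, the 16 libraries alone and leaving out each library.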

Additional observations from a re-analysis of the deposited data

Results flagged for a closer look

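The response to Das differed between 24 h and 72 h by the test of the difference itself in 39 genes, of which 37 are given here as the change of the log2 response. Past both cutoffs they were 2.42 in CTNNAL1, 2.05 in ACSS1, 1.63 in ALDH3A1 and 1.63 in ENSG00000251143 upwards. Downwards they were -3.25 in LRRC55, -2.65 in ETV5, -2.42 in SAA2, -2.34 in KRT6B, -2.17 in CES1, -2.05 in SPRY4, -2.05 in SGK1, -1.84 in PADI3, -1.65 in PALD1 and -1.58 in DEPP1. The smaller upward changes were 1.23 in CENPJ, 1.13 in BORA, 0.92 in RHOB and 0.66 in PAFAH2. The smaller downward changes were -1.48 in SLC34A2, -1.37 in OSBP2, -1.35 in IL27RA, -1.21 in IFITM3, -1.12 in MYC, -1.12 in NPAS2, -1.10 in MYEOV, -1.09 in EVA1C, -1.06 in SHISA4, -1.03 in MOB3B and -0.92 in PC. Below these lay -0.90 in DBNDD1, -0.89 in PDE4B, -0.89 in TNS2-AS1, -0.87 in NCCRP1, -0.85 in DCBLD1, -0.72 in ACSS2, -0.71 in CSGALNACT1 and -0.68 in TRIB2.

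A library stood apart from the other 3 of its group, by the ratio of its gap to the range, in 31 of 292 groups looked at (10.6%), where chance gives about 1 in 20. Of these, 23 were unnumbered libraries and 3 were single genes in Das replicate 3 of 72 h. The unnumbered control library of 24 h stood apart for CTNNAL1 (ratio 0.965), SAA2 (0.855), LRRC55 (0.841), PI3 (0.873), C3 (0.882), PER3 (0.901), ERRFI1 (0.875), MCM6 (0.844), PLK1 (0.937), LDHA (0.856) and MCL1 (0.939). The unnumbered Das library of 24 h stood apart for SAA2 (0.908), LRRC55 (0.983), C3 (0.833), KRT23 (0.899), MMP7 (0.852), KRT5 (0.938), MCM6 (0.874), SQLE (0.843), DDIT3 (0.938) and HERPUD1 (0.868). The unnumbered control library of 72 h did so for OLFM4 (0.970) and DIRAS2 (0.942). Das replicate 3 of 72 h stood apart for EGR1 (0.963), ENSG00000228477 (0.848) and DDIT3 (0.862), and in the median over the 185 genes lower with Das at 24 h (0.833), which was -1.02 there against -1.32 to -1.38 in the other 3. The rest were control replicate 1 of 72 h for ACSS1 (0.831), control replicate 2 of 72 h for KRT6B (0.867), Das replicate 1 of 72 h for MMP7 (0.927) and control replicate 3 of 24 h for KRT86 (0.952). Genes named only for a call at the adjusted p alone were not looked at. Among them, the unnumbered Das library of 72 h held 66.4 CPM of RHOB against 88.4 to 89.8 CPM in the other 3. For IL27RA it held 25.1 CPM against 14.8 to 16.4 CPM.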

How the results depend on the processing

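The number of genes past both cutoffs (16) was 43 by DESeq2, 65 with a batch term, 111 in the numbered libraries, 10 in the 16 libraries alone and 28 with a size cutoff of 1. At the adjusted p alone (39) these were 170, 298, 607 and 17. Growing genes (26) were 116, 206, 408 and 16, and fading genes (8) were 44, 77, 162 and 1. Lasting genes (44) were 68 with the batch term and 2 with the interval held within 0.5. With the replicate block, which the numbers do not support as a pairing, the counts were 62, 261, 68 lasting, 69 fading and 180 growing. With settings chosen after seeing the data, the batch term without Das replicate 3 of 72 h gave 161, 1355, 69 lasting, 147 fading and 1168 growing, and the numbered libraries without it 380, 3265, 72, 385 and 2692. All 37 genes given above were called under the block, the batch term, DESeq2 and in the numbered libraries. In the 16 libraries alone, LRRC55, ETV5, SPRY4, KRT6B, CES1, SGK1 and DEPP1 were called as well. CTNNAL1, ACSS1, ALDH3A1, ENSG00000251143, SAA2, PADI3 and PALD1 were not called there (adjusted p = 0.0104 to 0.0458). MYC (adjusted p = 0.0441) and RHOB (adjusted p = 0.0146) were among the smaller changes that were not called there either. Leaving out 1 library gave 8 to 64 genes past both cutoffs, 15 to 307 at the adjusted p, 35 to 45 lasting, 1 to 37 fading and 11 to 274 growing. The counts past both cutoffs were 64 without Das replicate 3 of 72 h, 38 without the unnumbered Das library of 72 h, and 8 or 9 without Das replicate 1 of 24 h, Das replicates 1 or 2 of 72 h or any numbered control, so a smaller set of libraries both added and removed calls, and the cause was not tested. RLE scaling moved the median of all genes by less than 0.1 and, like the lack of a filter, left each of these counts within 1.5 times. Of the other values of single genes, 1889 kept their direction and side of the threshold, 282 lost and 173 gained the call. Leaving out 1 library put the change of PLK1 between -0.398 and 0.255 and that of CCNF between -0.222 and 0.392. The negative ends, a reversed sign, were both without Das replicate 3, and the sign was also reversed without it under the batch term (-0.41 and -0.25) and in the numbered libraries (-0.69 and -0.41). Genes near the floor in Das cells have the least certain size. Examples are ETV5 and LRRC55 at 72 h, and CTNNAL1 and MYL9 at 24 h.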

Other observations

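OSBP2, MYEOV, TRIB2, PC and NCCRP1 were called for the change at the adjusted p alone and lay outside the rule for named genes. OSBP2, an oxysterol-binding protein, was at 59.0 to 73.6 CPM in control and 39.9 to 53.3 CPM in Das cells at 24 h, and at 76.6 to 87.4 CPM and 27.7, 21.9, 21.9 and 24.8 CPM at 72 h. Its response was not called at 24 h (-0.39, adjusted p = 0.0332) and was -1.76 at 72 h, and its change was called in each of the 16 fits that left out 1 library. TRIB2, a pseudokinase that steers protein degradation, was at 139 to 167 CPM in control and 60.9 to 65.5 CPM in Das cells at 24 h, and at 193 to 217 CPM and 59.5, 46.2, 48.5 and 56.5 CPM at 72 h, so its fall of -1.26 reached -1.95. MYEOV, a gene co-amplified with CCND1 in some tumours, went from -1.36 to -2.46. PC, pyruvate carboxylase, which refills the citric acid cycle, went from 0.09 to -0.83, with Das cells of 72 h at 93, 61.2, 62.3 and 85.4 CPM against 116 to 161 CPM in control. NCCRP1, an F-box-like protein of squamous epithelia, went from -0.06 to -0.93.

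SCN3B, a sodium channel beta subunit, had 2 to 7 counts in control and 17 to 19 counts in Das cells at 24 h. At 72 h it had at most 2 counts in control and 54, 100, 56 and 4 counts in Das cells, at least 19.06-fold higher against a floor of 3 counts per library (p = 0.0286 in a two-sided exact permutation test, the lowest it can give here). MYL9, a myosin light chain, was called without Das replicate 3 of 72 h (2.75, adjusted p = 0.000892), where its fall at 24 h (-2.32) had faded. It was at 1.15, 1.52 and 1.18 CPM in the other Das libraries of 72 h, 0.124 CPM in replicate 3 and 0.741 to 1.27 CPM in control. The Das level of MYL9 at 24 h rests on 6 to 14 counts per library.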
